A study of Rattus norvegicus with 10 samples.

Results

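A set of 9 genes that make, sense, move and clear adenosine, or that turn the methyl cycle next to it, was followed in rat hippocampal mRNA after traumatic brain injury (TBI). They were chosen by name and not by their values: Adk, Adora1, Adora2a, Nt5e, Slc29a1, Mat2a, Mat2b, Ahcy and Mtr. Each had 1 row among the 32041 RNA records of the count table, and 9 of 9 passed the filter on low counts that left 22431 records for testing. Messenger RNA had been sequenced from 5 sham operated and 5 TBI rats, all adult male Sprague-Dawley rats of 330 to 371 g at surgery. The TBI rats had a lateral fluid percussion impact of 3.32 atm on the exposed dura over the left parietal lobe, and the sham rats had the same anaesthesia and craniectomy without the impact. Tissue of the left hippocampus, labelled dorsal and holding CA3 and the dentate gyrus, was taken at 3 months. The groups follow the sample labels, while the methods of the study name fewer control rats for this model and do not say which. The injured rats were grouped by injury, and whether any rat had seizures was not used here.

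Adenosine is a purine that quiets neurons. Outside the cell it is cut from ATP by surface enzymes, acts on G protein-coupled receptors and is carried back across the membrane by nucleoside transporters, and inside the cell adenosine kinase returns it to AMP, a step that in adult brain is carried out mainly by astrocytes. Inside the cell adenosine is also a product of the methyl cycle: methionine is activated to S-adenosylmethionine, the methyl donor of DNA and histone methylation, and the S-adenosylhomocysteine left over is split into homocysteine and adenosine, which is why clearing adenosine keeps that cycle turning.

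No difference between TBI and sham rats in the 9 genes passed the test. With edgeR's quasi-likelihood test and Benjamini-Hochberg adjustment over all records, 0 of 9 had an adjusted p under 0.05, beside 0% of all records tested, where 0.477 was the smallest adjusted p. The count without adjustment, at p under 0.05, was also 0 of 9, beside 7.89% of all records (1769 of 22431). The groups overlapped in 9 of 9 genes, while they were apart in 0.923% of all records. Of the genes, 6 had a log2 fold change above 0 and 3 below, with a median of 0.006 beside -0.008 over all records.

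The libraries held 23425817 to 31671838 counts, and ribosomal RNA took 12.5 to 26.2% of them in 8 rats but 59.0% and 58.5% in sham rats 4 and 5. That share was higher in the sham group (exact two-sided permutation test over all splits of the rats, p = 0.0238), and those rats had the lowest counts for 9 of the 9 genes. All levels here are counts per 1000000 (CPM) of a library size adjusted by TMM, a scaling that sets most genes equal between libraries. No transcript lengths were used, so levels are compared between rats and not between genes. The tissue had reads for CA3 markers in every rat (summed level 1655 to 2049 CPM in sham, 1525 to 2030 in TBI) and for dentate granule cell markers, where sham rat 1 stood at 75.5 CPM and the other sham rats at 199.7 to 235.9. Of the defining markers, Tdo2 for the dentate and Iyd for CA3 had 0 to 3 and 0 to 5 counts. CA1 markers ran from 68.5 to 147 CPM in sham rats. In TBI rats 1 to 5 they summed to 296, 503, 135, 48.1 and 193 CPM.

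Nt5e, the surface enzyme CD73 that cuts AMP to adenosine, had the largest log2 fold change of the 9 genes. Its level in sham rats 1 to 5 was 6.65, 9.16, 7.96, 5.98 and 9.06 CPM, and in TBI rats 1 to 5 it was 12.53, 9.58, 8.68, 6.89 and 8.29 CPM. TBI rats 1 and 2 lay above every sham rat, and the other 3 lay inside the sham range. TBI rats 1 and 2 also had the highest summed CA1 markers, at 296 and 503 CPM. The part of CA1 tissue in the Nt5e values was not tested. The group means were 7.76 ± 1.42 CPM (SD, n = 5) in sham and 9.19 ± 2.10 CPM (SD, n = 5) in TBI, a 1.18-fold ratio with a 95% interval of 0.948 to 1.47 (log2 0.24, SE 0.151; edgeR adjusted p = 0.738). The counts behind it were 88 to 432 per rat.

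The A1 receptor gene Adora1 encodes the inhibitory receptor that lowers transmitter release and is dense in the hippocampus. It stood at 79.29, 69.50, 70.93, 65.88 and 73.42 CPM in the sham rats and at 77.27, 84.54, 83.82, 75.27 and 72.41 CPM in the TBI rats. All 5 TBI rats lay above the sham median of 70.93 CPM, yet only TBI rats 2 and 3 lay above the highest sham rat. The means were 71.8 ± 5.00 and 78.7 ± 5.33 CPM (SD, n = 5 each). The ratio fitted by edgeR was 1.09 with an interval of 0.981 to 1.22 (log2 0.13, SE 0.0756; edgeR adjusted p = 0.713). It had the smallest p of the 9 genes, and its rank by p among the records tested was 3148.

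Adora2a, the gene of an excitatory adenosine receptor best known from the striatum, was the most thinly counted member at 36 to 134 reads per rat. The sham rats had 2.81, 1.87, 2.18, 2.45 and 2.56 CPM and the TBI rats 2.58, 2.26, 3.49, 1.96 and 3.47 CPM. TBI rats 3 and 5 were above the sham range and the rest were inside it. The means were 2.37 ± 0.362 in sham and 2.75 ± 0.700 CPM in TBI (SD, n = 5 each). The ratio fitted by edgeR was 1.17 with an interval of 0.899 to 1.51 (log2 0.22, SE 0.179; edgeR adjusted p = 0.806). Markers of striatal neurons, in which Adora2a is abundant, had reads in every rat, with 8 of 8 listed genes tested. Their summed level was 95.3 to 131 CPM in sham and 121 to 141 CPM in TBI rats. Most of that sum was Ppp1r1b (69.3 ± 14.4 CPM in sham and 90.3 ± 5.83 in TBI; SD, n = 5 each), while 5 of the 8 markers were lower in TBI, among them Drd1 (log2 -0.44) and Drd2 (log2 -0.52), and the list median was -0.22. Their part in the Adora2a values was not tested.

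Slc29a1 encodes the nucleoside transporter ENT1, which lets adenosine pass the membrane in either direction. It read 4.15, 3.16, 3.77, 4.35 and 2.75 CPM in sham rats and 3.62, 3.96, 3.70, 3.61 and 4.14 CPM in TBI rats. All TBI values fell inside the sham range. The sham mean was 3.64 ± 0.672 CPM (SD, n = 5) and the TBI mean 3.81 ± 0.237 CPM (SD, n = 5), with a log2 fold change of 0.06, an interval from -0.21 to 0.34 and an edgeR adjusted p of 0.939.

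Adk, the kinase that clears adenosine by turning it into AMP, had nearly equal group means. Its sham values were 24.29, 25.66, 21.54, 28.42 and 22.31 CPM and its TBI values 24.76, 25.36, 22.15, 22.08 and 26.39 CPM. Again every TBI rat lay inside the sham range. The means were 24.4 ± 2.75 and 24.1 ± 1.95 CPM (SD, n = 5 each), and the 95% interval of the ratio was 0.870 to 1.13 (log2 -0.01, SE 0.0890; edgeR adjusted p = 0.986). Because the tissue holds many cell types, fewer cells of a type and less RNA per cell cannot be told apart in these values.

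Astrocyte markers, which stand for the cells where most Adk is found in adult brain, were read in the same libraries. Their summed level was 2294 to 3273 CPM in sham and 2494 to 4193 CPM in TBI rats, with 3 of 8 markers at an unadjusted p under 0.05 beside 7.89% of all records. Gfap, the intermediate filament of reactive astrocytes, averaged 1016 ± 346 CPM in sham and 1801 ± 523 CPM in TBI (SD, n = 5 each; log2 0.82, edgeR adjusted p = 0.514). Gfap made up most of the difference in the sum. Aqp4 (log2 0.53), Aldh1l1 (0.23), S100b (0.19) and Gja1 (0.17) were also higher in TBI, while Slc1a3 (-0.001), Gjb6 (-0.001) and Slc1a2 (0.06) were near 0. Microglial markers summed to 209 to 316 CPM in sham and 247 to 342 CPM in TBI, with 4 of 8 at an unadjusted p under 0.05. No marker of either list passed the adjusted threshold, and their part in the levels of the 9 genes was not tested.

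**Figure D1:**
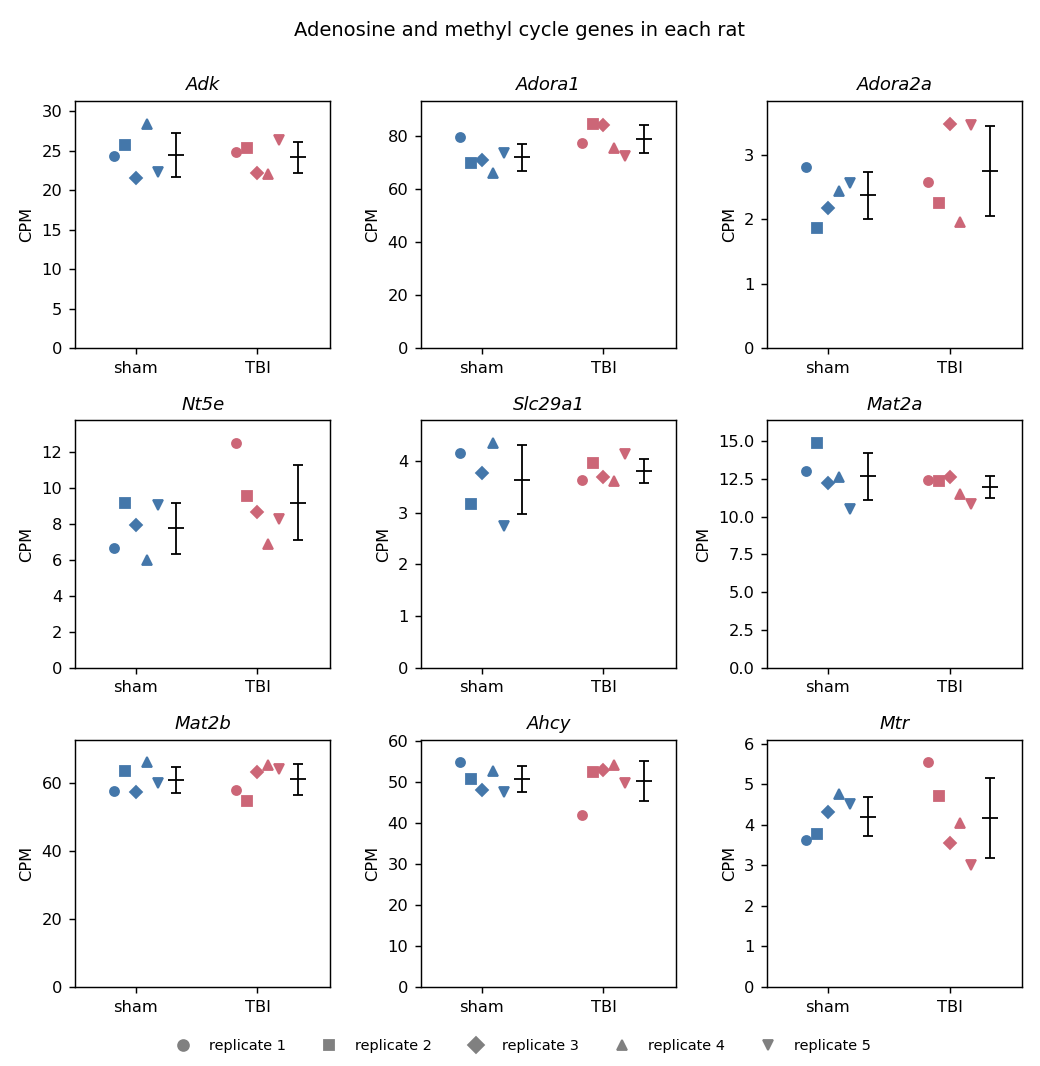
Level of each of the 9 genes in each rat, in CPM on axes that start at 0, with 1 symbol per rat (blue sham, red TBI) and the group mean ± SD beside it in black. Sham and TBI rats overlap in all 9 panels, and Nt5e in TBI rat 1, at 12.53 CPM, lies above all sham rats, which reach 9.16 CPM.

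Mat2a and Mat2b, the catalytic and the regulatory subunit of methionine adenosyltransferase, make S-adenosylmethionine in tissues outside the liver. Mat2a was at 13.05, 14.88, 12.25, 12.64 and 10.50 CPM in sham rats and at 12.41, 12.35, 12.59, 11.51 and 10.85 CPM in TBI rats. No TBI rat exceeded the sham median of 12.64 CPM, but all lay inside the sham range, and the log2 fold change of -0.09 (SE 0.0969) had an interval from -0.29 to 0.11 and an edgeR adjusted p of 0.867. Mat2b had 57.44, 63.25, 57.22, 65.94 and 59.86 CPM in sham and 57.82, 54.68, 63.22, 65.03 and 64.07 CPM in TBI rats. Its means of 60.7 ± 3.79 and 61.0 ± 4.49 CPM (SD, n = 5 each) gave a ratio of 1.00, with an interval of 0.899 to 1.12 (edgeR adjusted p = 0.995). Within a library, where no scaling enters, there were 20.9 ± 2.49 Mat2a counts per 100 Mat2b counts in sham and 19.7 ± 2.40 in TBI rats (SD, n = 5 each), and the groups overlapped.

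Ahcy, the enzyme that splits S-adenosylhomocysteine into homocysteine and adenosine and so joins both pathways, read 54.75, 50.67, 47.99, 52.69 and 47.43 CPM in sham rats and 41.90, 52.42, 52.78, 54.05 and 49.72 CPM in TBI rats. Only TBI rat 1 left the sham range, downward, and it was the rat in which Nt5e was highest. The ratio of TBI to sham was 0.989 with an interval of 0.879 to 1.11 (log2 -0.02, SE 0.0813; edgeR adjusted p = 0.982). Mtr, methionine synthase, which remethylates homocysteine with a folate-borne methyl group, had 3.62, 3.77, 4.32, 4.76 and 4.50 CPM in sham and 5.54, 4.71, 3.55, 4.05 and 3.00 CPM in TBI rats. The TBI rats were spread to both sides of the sham rats, 1 above their range and 2 below it. The means came out at 4.19 ± 0.483 and 4.17 ± 0.990 CPM (SD, n = 5 each), with an interval of the ratio from 0.803 to 1.25 (edgeR adjusted p = 0.998).

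Ratios of counts within a library compared the genes without any library size. There were 32.3 ± 7.96 Nt5e counts per 100 Adk counts in sham and 38.0 ± 7.89 in TBI rats (SD, n = 5 each). In sham rats the ratio ran from 21.1 to 40.6 and in TBI rats from 31.2 to 50.6. Ahcy stood at 209 ± 17.0 counts per 100 Adk counts in sham and 209 ± 32.2 in TBI rats (SD, n = 5 each), and Adora1 at 298 ± 44.4 and 328 ± 38.3. All of these ranges overlapped between the groups, and the ratios were given as a description with no test.

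The precision differed among the genes. The standard error of the log2 fold change was lowest for Adora1 (0.0756) and Mat2b (0.0759) and highest for Adora2a (0.179), with a median of 0.0969 over the 9 genes beside 0.127 over all records. Over the 13340 records with a mean CPM within the range of the 9 genes, that median was 0.107. Between sham rats the coefficient of variation ran from 6.11% for Ahcy to 18.5% for Slc29a1, and between TBI rats from 6.17% for Mat2a to 25.4% for Adora2a. The upper ends of the intervals stayed at or below a ratio of 1.13 for Adk, Mat2a, Mat2b and Ahcy, and reached 1.51 for Adora2a. A difference of any size inside a gene's interval remained compatible with the values of these rats.

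**Figure D2:**
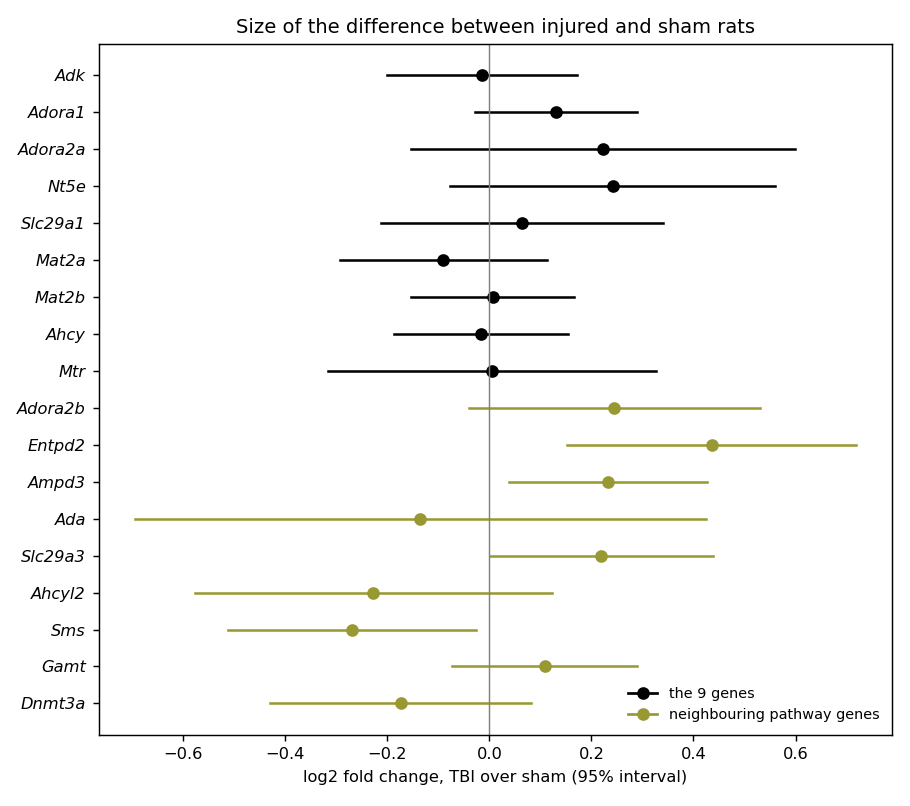
Log2 fold change, TBI over sham, of the 9 genes (black) and of 9 other genes of the same pathways (olive), as points with 95% intervals. The olive genes were picked for an unadjusted p under 0.05 or for the smallest p of their list, so their intervals describe a choice. All 9 intervals of the black genes cross 0, from Mat2a at -0.09 to Nt5e at 0.24.

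The neighbouring enzymes, receptors and transporters were counted from a list of 62 genes, of which 56 were found by name and 46 were tested. Of these, 23 had a log2 fold change above 0 and 23 below, none passed the adjusted threshold, and 5 (10.9%) had an unadjusted p under 0.05, a share near the 7.89% of all records. Of the 5, 4 were higher in TBI, and all 5 overlapped between the groups. The values of 4 of them follow as a description.

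Among 9 tested genes of extracellular nucleotide breakdown, 1 passed the unadjusted threshold, beside 7.89% of all records. It was Entpd2, an ectonucleotidase that cuts ATP upstream of Nt5e, with 24.44, 23.07, 29.31, 24.47 and 20.18 CPM in sham and 41.64, 38.69, 24.53, 28.78 and 31.08 CPM in TBI rats. In TBI, 3 rats lay above every sham rat, sham rat 3 was the highest of its group and TBI rat 3 the lowest of its own. The means were 24.3 ± 3.30 CPM in sham and 32.9 ± 7.08 CPM in TBI (SD, n = 5 each; log2 0.44, SE 0.134; edgeR adjusted p = 0.485). The astrocyte marker sum, too, was highest among sham rats in sham rat 3 (3273 CPM) and lowest among TBI rats in TBI rat 3 (2494 CPM). The part of those cells in the Entpd2 values was not tested. The study itself lists Entpd2 and Gfap as upregulated after TBI, in a list cut on p without adjustment. None of the 9 genes is in that list. The study's methods name fewer control rats than were used here, so its list and the adjusted p here are not like for like.

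Inside the cell, 1 of 7 tested genes of nucleotide breakdown had an unadjusted p under 0.05, beside 7.89% of all records. This gene was Ampd3, an AMP deaminase that diverts AMP to IMP, at 24.9 ± 1.92 CPM in sham and 29.3 ± 3.79 CPM in TBI (SD, n = 5 each; log2 0.23, edgeR adjusted p = 0.555). Among 5 tested nucleoside transporters other than ENT1, 1 passed that threshold, again beside 7.89% of all records. This was Slc29a3, a transporter of lysosomal membranes, at 17.8 ± 2.94 and 20.8 ± 1.61 CPM (SD, n = 5 each; log2 0.22, edgeR adjusted p = 0.633). The adenosine deaminase gene Ada was at 0.522 ± 0.117 CPM in sham and 0.470 ± 0.100 CPM in TBI (SD, n = 5 each), with a log2 fold change of -0.14 and an interval from -0.70 to 0.42. The A2B receptor gene Adora2b stood at 5.29 ± 0.628 CPM in sham and 6.30 ± 1.28 CPM in TBI (SD, n = 5 each), with a log2 fold change of 0.24 beside 0.13 for Adora1 and 0.22 for Adora2a. Its edgeR adjusted p was 0.695. All 3 receptor genes measured were higher on average, beside 47.8% of all records. Of the 3, 0 passed the unadjusted threshold, beside 7.89% of all records. The receptor gene Adora3 was not found by name.

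On the methyl cycle side, 1 gene of transsulfuration and polyamine synthesis, of 5 tested, had an unadjusted p under 0.05, beside 7.89% of all records. It was Sms, spermine synthase, a user of decarboxylated S-adenosylmethionine, at 11.9 ± 1.84 and 9.84 ± 1.18 CPM (SD, n = 5 each; log2 -0.27, edgeR adjusted p = 0.589). Ahcyl2, a relative of Ahcy, had a log2 fold change of -0.23 (edgeR adjusted p = 0.777). The de novo DNA methyltransferase gene Dnmt3a, a user of the methyl donor, was at -0.17 (edgeR adjusted p = 0.767), and Gamt, which spends S-adenosylmethionine on creatine, at 0.11 (edgeR adjusted p = 0.802).

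**Figure D3:**
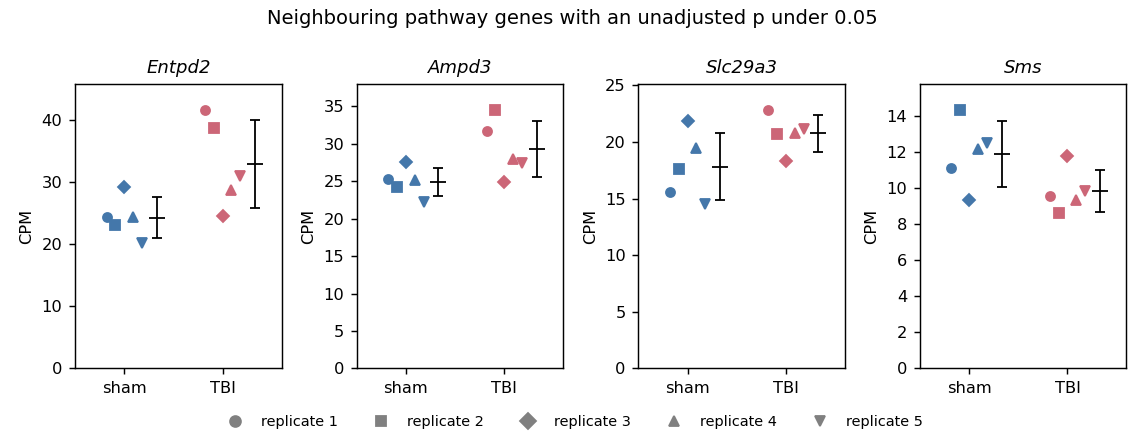
Level in each rat, in CPM on axes that start at 0, of 4 of the 5 neighbouring pathway genes with an unadjusted p under 0.05, with 1 symbol per rat (blue sham, red TBI) and the group mean ± SD in black. Entpd2, Ampd3 and Slc29a3 have higher means in TBI and Sms a lower one, and the groups overlap in every panel.

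The library scaling moved the values of all 9 genes together. Scaled to total counts alone, all 9 genes were higher in TBI, by log2 0.38 to 0.76, but so was the median of all records, by 0.498. Scaled to counts outside ribosomal RNA the median of all records was 0.141, and when 5 further abundant records with no gene name were also left out, an alternative chosen after seeing the data, it was -0.0015 and the 9 genes again ranged from -0.08 to 0.25. Those 5 records took 2.30 to 11.7% of counts and were highest in sham rats 4 and 5. Under total counts and under counts outside ribosomal RNA, which moved the median of all records, Adk, Mat2a and Ahcy were above 0 with it. Adora1, Adora2a and Nt5e kept their direction under all 27 alternatives. Nt5e and Adora1 reached an unadjusted p under 0.05 in 3 of the 27 each, Adora2a in 1. In those alternatives 7.44 to 16.9% of all records did so.

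**Figure D4:**
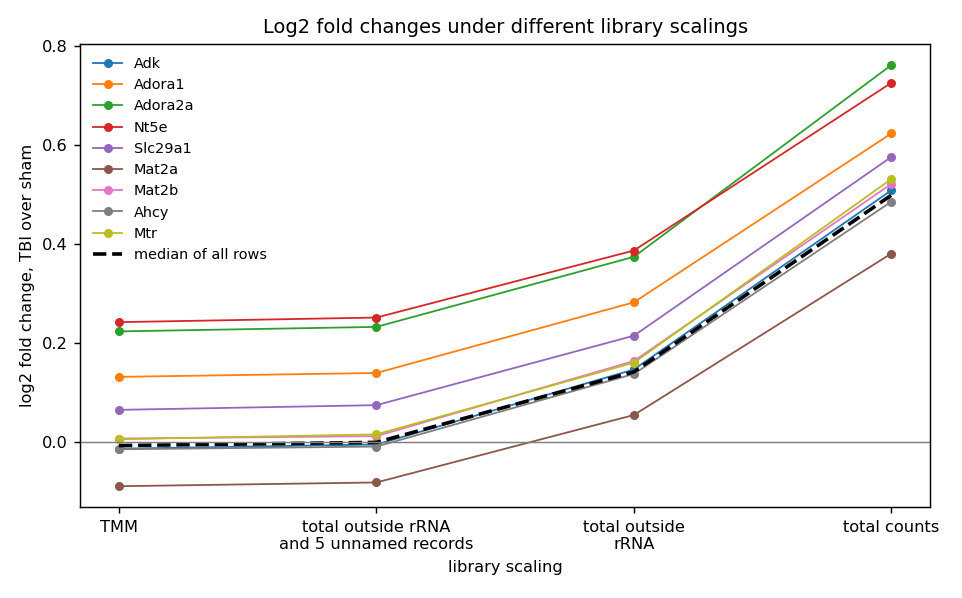
Log2 fold change, TBI over sham, of the 9 genes (coloured lines) under 4 ways to scale the libraries, with the median of all tested records as a dashed black line. The lines move together with that median, from -0.008 under TMM to 0.498 under total counts. Nt5e, Adora2a, Adora1, Slc29a1, Mat2b and Mtr stay above it throughout, and Mat2a and Ahcy stay below it.

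The stretch before the start of each gene was read from RefSeq for 8 of the 9 genes (rat build GRCr8). The methyl cycle supplies the donor for methylation at CG pairs, so these were counted in the 250 bases upstream of the start. CG was searched as these letters, which read the same on both strands. The 8 genes had 3 to 29 CG pairs, with a median of 15.5 beside 15 over the tested genes that have such a sequence (quartiles 8 and 22). The richest and the poorest are shown, each on the strand of its gene from 5′ to 3′ in lower case with every CG pair in capitals. Of the tested genes, 11.5% had at least as many pairs as Mat2a, and 92.8% had at least as many as Adora1.
Mat2a, chr4:106053613-106053862, minus strand, 29 CG pairs: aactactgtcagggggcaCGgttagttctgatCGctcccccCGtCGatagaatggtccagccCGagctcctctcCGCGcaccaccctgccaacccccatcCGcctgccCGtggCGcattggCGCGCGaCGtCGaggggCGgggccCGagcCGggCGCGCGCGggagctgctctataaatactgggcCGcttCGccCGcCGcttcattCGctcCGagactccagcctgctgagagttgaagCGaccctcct
Adora1, chr13:48246832-48247081, minus strand, 3 CG pairs: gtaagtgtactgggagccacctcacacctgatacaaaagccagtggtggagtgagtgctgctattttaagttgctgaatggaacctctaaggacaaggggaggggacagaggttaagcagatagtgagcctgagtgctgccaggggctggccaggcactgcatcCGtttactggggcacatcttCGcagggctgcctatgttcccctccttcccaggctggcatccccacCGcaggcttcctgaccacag
Between these ends lay Adk with 22 pairs, Nt5e with 20, Slc29a1 with 16, Ahcy with 15, Mtr with 14 and Mat2b with 13. A count of CG pairs describes the sequence and says nothing of its methylation in these rats, which was not analysed here.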

How the data were processed

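Poly-A selected mRNA of 10 rats, 5 sham and 5 TBI, had been read as single reads of 36 bases. Per the labels the authors aligned reads with BWA to rat build rn 4, and they deposited raw counts per RefSeq RNA record, not normalized and not pooled. The methods name Ensembl transcripts, while the rows are RefSeq records, and how these go together is not given in the sources used here. Of 32043 rows, the 2 that name no gene were left out (unmapped reads, a median of 22.2% of a library, and an empty entry). Symbols came from a RefSeq table of another assembly, used for names only, and covered 54.2% of records.

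Records with a total of at least 44 counts, the 30th percentile, entered the robust quasi-likelihood test (edgeR 4.0.16, TMM scaling, R 4.3.3), with Benjamini-Hochberg adjustment over 22431 records at a threshold of 0.05. Standard errors were derived as the absolute log2 fold change over the square root of the test's F statistic. Intervals are 95% intervals from that standard error and a t quantile. Ratios given with an interval are fold changes of the edgeR fit. The test was tested on simulated data first. CPM uses the TMM-adjusted library size. The labels name separate rats. Alternatives used DESeq2 1.42.0, limma 3.58.1 and sva 3.50.0, other scalings and filters, and rats left out. Other pathway genes were named at an unadjusted p under 0.05, otherwise the gene with the smallest p was named for each list. The values of 1 such gene are not reported here. The genes, lists and tests were chosen with earlier results of these data known. No source says that strand was used in counting, and reads of overlapping genes cannot then be told apart.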

Additional observations from a re-analysis of the deposited data

Results flagged for a closer look

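None of the 9 genes had a rat far from the rest of its group. Over 64 groups of 5 rats looked at (the genes named here and the marker sums), 5 had a rat whose gap to the nearest other passed Dixon's critical value of 0.71, beside 3.2 that chance gives at 1 in 20. All 5 were marker sums in the sham group. Sham rat 1 was at 75.51 CPM for dentate granule cell markers (others 199.7 to 235.9), at 2049 CPM for CA3 markers (others 1655 to 1734) and at 2396 CPM for general neuronal markers (others 1937 to 2067). Sham rat 3 was at 3273 CPM for astrocyte markers (others 2294 to 2459), and sham rat 4 at 36.51 CPM for choroid plexus markers (others 6.856 to 14.67). Leaving out sham rat 1 gave Adora1 an unadjusted p under 0.05 (edgeR adjusted p = 0.570), beside 8.36% of all records. Leaving out sham rat 3 or sham rat 4 gave 0 of 9 genes an unadjusted p under 0.05, beside 11.4% and 6.30% of all records.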

How the results depend on the processing

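None of the 9 genes passed the adjusted threshold under any of 27 alternatives. At an unadjusted p under 0.05 the count was 1 with voom and sample weights (Adora1, beside 8.22% of all records) and 2 with total counts (Adora2a and Nt5e, 16.9%). It was 2 with counts outside ribosomal RNA (Adora1 and Nt5e, 12.9%). With each rat left out it was 0 to 1: Adora1 without sham rat 1 (8.36% of all records) and Nt5e without TBI rat 4 (7.44%). With CPM on library size alone, the groups of 1 gene (Adora1) did not overlap, beside 4.62% of all records. Of the 46 pathway genes tested, 5 had an unadjusted p under 0.05, beside 7.89% of all records. Voom gave 2 (8.22% of all records), total counts 10 (16.9%), 1 surrogate variable 3 (5.09%), and leaving out sham rats 4 and 5 gave 2 (5.60%). With each rat left out the count was 1 to 7, beside 5.18 to 11.4% of all records. It was 1 without TBI rat 1 or TBI rat 2, and 3 without sham rat 2 or sham rat 5. Without sham rat 3 and TBI rat 3, 1 pathway gene (Entpd2, adjusted p = 0.0148 by edgeR; 0.115 to 0.974 under the other alternatives) passed the adjusted threshold, beside 320 of all 22431 records. These rats had been picked because they lay near the other group, so leaving them out widens the difference by construction and supports nothing. The cause of the other moves was not tested.

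Signs reversed in 29 of 243 values of the 9 genes, including those under the scalings that moved all records. Log2 values were 0.022 for Ahcy and -0.082 for Mtr with voom. With total counts they were 0.51 for Adk, 0.38 for Mat2a, 0.48 for Ahcy, 0.40 for Ada, 0.28 for Ahcyl2, 0.24 for Sms and 0.33 for Dnmt3a. With counts outside ribosomal RNA they were 0.15 for Adk, 0.054 for Mat2a, 0.14 for Ahcy and 0.0045 for Ada, and with the ribosomal share as a covariate 0.0093 for Adk and 0.092 for Ada. Adk was at 0.016 with the surrogate variable and at 0.025 without sham rats 4 and 5, and Mat2b at -0.028 without sham rat 3 and TBI rat 3. With each rat left out, Adk ran from -0.058 to 0.037, Mat2b from -0.018 to 0.043, Ahcy from -0.043 to 0.043, Mtr from -0.12 to 0.10 and Slc29a1 from -0.012 to 0.12. No paired analysis was possible because a replicate number here only names a rat, given in the order of listing. Counts were lowest for Adora2a, Slc29a1 and Mtr, at 36 to 191 a rat.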

Other observations

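Among 8681 named genes with a mean of at least 5 CPM, those whose log2 CPM ran most like each member over the 10 rats were picked as the highest Pearson correlations, so the values describe a choice and carry no test. They were Gabrg1 (0.95) for Nt5e, Anapc5 (0.96) for Slc29a1, Riok2 (0.97) for Mat2a, Spryd3 (0.94) for Ahcy, Chmp2a (0.91) for Mat2b, Vhl (0.89) for Adk, Samd4b (0.90) for Adora1 and Esrra (0.87) for Adora2a. For Mtr it was Slc1a2 (0.91), the glutamate transporter gene of astrocytes. All share the same 10 libraries and their depths.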
